A study of Mus musculus with 20 samples.

Results

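The 10 genes examined here encode the myosin heavy chains and the troponins that set fast fibres of skeletal muscle apart from slow ones, and they were read in 20 RNA-seq libraries of mouse fat. They were taken by name from the 36610 genes of the series, by a rule that uses no measured value. The 6 fast members are Myh4, Myh1, Myh2, Tnnt3, Tnni2 and Tnnc2, and the 4 slow members are Myh7, Tnnt1, Tnni1 and Tnnc1. All 10 had a value in every library, and 8 had a mean of at least 0.5 TPM (abundance per length of transcript, scaled to a fixed total in each library) and entered the tests, while Myh7 and Tnni1 stayed below it.

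The tissue was iWAT, the white fat under the skin of the groin, from female C57BL/6 mice given as 6 months old. There were 4 groups of 5 libraries, from control littermates and from Ad-Tmem120a-/- mice (knockout), which had eaten a diet with 10.5% fat (LFD, low fat diet) or 58% fat (HFD) for 15 weeks. According to the study's methods all mice carried floxed alleles of Tmem120a, which encodes a transmembrane protein of the nuclear envelope, and they were fasted before tissue was taken. The knockout mice also carried Cre recombinase under the adiponectin promoter, which acts in mature adipocytes, so other cells of the tissue keep the gene. The labels call the controls wild type. Libraries are named by group and by the number in their label, from 1 to 21. The comparisons ask whether the removal of Tmem120a from adipocytes, or the diet, went with other levels of these genes, and the ratios within a library ask which kind of muscle fibre the transcripts resemble. No library of muscle was analysed here.

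The libraries held between 54605101 and 92387737 estimated counts. The fat cell gene Adipoq stood between 638 and 1502 TPM, so the labelled tissue carried its defining marker throughout. The gene sum of Tmem120a was 57.9 to 132 TPM in control and 21.5 to 74.0 TPM in knockout libraries on LFD, and 83.3 to 196 against 29.5 to 89.7 TPM on HFD. Knockout LFD 7 and knockout HFD 21 thus lay inside the range of their controls, in a sum that also holds exons outside the floxed ones. Calls of members that change without either of them are given with and without it.

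A muscle fibre contracts when myosin heads pull on actin, and troponin switches this on when calcium binds. In the adult mouse the heavy chain names the fibre, with Myh7 in slow type I fibres, Myh2 in type IIa, Myh1 in type IIx and Myh4 in type IIb, the fastest. Troponin has a calcium-binding subunit (Tnnc2 fast, Tnnc1 slow), an inhibitory subunit (Tnni2 fast, Tnni1 slow) and a subunit that holds the complex on tropomyosin (Tnnt3 fast, Tnnt1 slow). Fast limb and trunk muscles of the mouse are rich in type IIb fibres, and the soleus of the calf is mainly type I and IIa. Tnnc1 and Myh7 are also used in the heart.

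The 3 fast myosins lie in tandem on the plus strand of mouse chromosome 11 in assembly mm9. Myh2 (ENSMUSG00000033196) spans chr11:66984529-67011019, Myh1 (ENSMUSG00000056328) chr11:67013554-67038078 and Myh4 (ENSMUSG00000057003) chr11:67051314-67073948. Their coding sequences are so alike that the split of reads between them bears on every type IIb, IIx and IIa value. Myh4 shares 90.2% of aligned coding bases with Myh1 and 88.2% with Myh2, and Myh1 shares 90.9% with Myh2. The stretch of 60 coding bases within a single exon at which Myh4 differs most from both others is shown next, because it sets Myh4 apart from the other two. It is exon 33 of 39 in Myh4 (chr11:67069935-67069994), exon 34 of 40 in Myh1 (chr11:67034150-67034209) and exon 33 of 39 in Myh2 (chr11:67006966-67007025), each read on the plus strand, and capitals mark the 18 positions that are not the same in all 3.
Myh4: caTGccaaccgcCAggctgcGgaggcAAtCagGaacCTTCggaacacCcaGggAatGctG
Myh1: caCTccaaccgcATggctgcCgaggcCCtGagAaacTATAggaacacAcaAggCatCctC
Myh2: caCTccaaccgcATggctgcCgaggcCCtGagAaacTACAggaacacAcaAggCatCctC

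Myh4 differs from both other genes at 17 of these positions, and Myh1 and Myh2 differ from each other at 1. Among coding transcripts, 69.7% of the 31-base words of Myh4 occur in no other gene, against 62.3% for Myh1 and 61.8% for Myh2. At 100 bases these shares are 96.2%, 90.8% and 91.1%. For Myh7 (ENSMUSG00000053093, chr14:55589525-55613471, minus strand) 69.1% of 31-base words are its own, and 30.7% are shared with the cardiac myosin Myh6. Transcripts that are not coding were not compared, and the 2 overlapping identifiers of Tnnc1 were counted together. The 6 troponin genes share no 31-base word with a coding transcript of another gene, so their values do not depend on such a split among these. These are Tnnt3 (ENSMUSG00000061723, chr7:149684741-149701914), Tnni2 (ENSMUSG00000031097, chr7:149627713-149630315), Tnnc2 (ENSMUSG00000017300, chr2:164602661-164605467), Tnnt1 (ENSMUSG00000064179, chr7:4456172-4467984), Tnni1 (ENSMUSG00000026418, chr1:137679642-137707566) and Tnnc1 (ENSMUSG00000021909, chr14:32021498-32024915). Tnni2 and Tnnt3 are near neighbours on chromosome 7.

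The 250 bases before the start of Myh4 and of Myh2 are also shown, since these neighbouring genes stood at very different levels in the same libraries. Both come from RefSeq promoters, were placed on mm9 by exact match, and read 5′ to 3′ on the plus strand, at chr11:67051064-67051313 for Myh4 and chr11:66984279-66984528 for Myh2. Capitals mark matches on either strand to the E box CANNTG, to TATAAA, to the MEF2 site and to the CArG box.
Myh4: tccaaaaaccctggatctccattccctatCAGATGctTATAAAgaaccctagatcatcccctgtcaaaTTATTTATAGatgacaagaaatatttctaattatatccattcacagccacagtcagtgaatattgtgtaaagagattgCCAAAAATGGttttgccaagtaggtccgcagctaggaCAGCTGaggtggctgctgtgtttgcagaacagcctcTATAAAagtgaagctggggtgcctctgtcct
Myh2: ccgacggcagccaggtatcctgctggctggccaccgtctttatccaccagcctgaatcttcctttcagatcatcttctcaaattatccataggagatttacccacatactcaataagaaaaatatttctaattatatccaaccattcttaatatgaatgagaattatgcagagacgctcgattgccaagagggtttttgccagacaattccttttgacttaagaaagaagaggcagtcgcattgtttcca

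Counted back from the start site, Myh4 has E boxes at -221 and -67, TATAAA at -213, -179 and -31, a MEF2 site at -182 that overlaps the middle TATAAA, and a CArG box at -104. Myh2 holds none of the 4 motifs in this window. Both windows end just before the first base of the gene, while transcripts with more counts start later, such as at 66984722 for Myh2 and 67051531 for Myh4. The bases just before those later starts were not searched, so which motifs are found may depend on the start chosen. Myh1, which lies between them, has TATAAA at -208 and -32 and a MEF2 site at -211. Of 32851 mouse promoters cut to the same length, 66.2% hold an E box, 12.4% TATAAA, 2.92% a MEF2 site and 1.47% a CArG box. A match is a run of letters and no evidence of binding, and entries were found for 8 of the 10 members, with none for Tnnt3 and Tnni2.

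The fast troponins led the members, and slow members were low throughout. Over the 20 libraries the median level was 25.2 TPM for Tnnt3, 14.7 for Tnnc2, 13.8 for Tnni2 and 4.44 for Myh4. It was 1.66 TPM for Tnnt1, 0.596 for Tnnc1, 0.533 for Myh1, 0.114 for Myh2 and 0.0294 for Myh7, while Tnni1 was listed at 0 in 12 libraries and had a median of 0. TPM is a level per length of transcript, so these levels can be set side by side, as far as the split between transcripts holds. Tnnt3 was the highest of the 10 in 17 libraries. Much of its level came from the transcript ENSMUST00000146804, which ends at chr7:149698527, before the end of the gene. This transcript held 934 TPM in control LFD 5 and 454 TPM in knockout HFD 17, so the rank of Tnnt3 rests in part on it. Neighbours in this order overlapped widely, because the level of each fast member ranged over more than an order of magnitude between libraries of the same group.

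Myh4, the type IIb heavy chain, ran from 0.0408 to 263 TPM between libraries. In control libraries on LFD it stood at 0.371, 0.107, 9.89, 6.27 and 263 TPM, and in knockout libraries on LFD at 51.9, 31.9, 2.61, 80.4 and 0.0796 TPM. On HFD the control libraries had 0.0571, 2.25, 0.107, 0.0849 and 0.0408 TPM and the knockout libraries 71.2, 12.4, 33.0, 43.0 and 0.990 TPM. On LFD the highest value of all 20 was in a control library and the groups overlapped throughout. On HFD 4 knockout libraries lay above every control, and knockout HFD 21 lay below control HFD 12. The estimated counts behind these values ran from 20 to 154966.

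Tnnt3, the fast tropomyosin-binding subunit, followed the same libraries. On LFD it stood at 19.3, 3.30, 85.4, 31 and 1395 TPM in control and 246, 146, 18.1, 527 and 1.15 TPM in knockout libraries. On HFD it stood at 1.48, 18.5, 2.18, 1.15 and 0.295 TPM in control and 667, 140, 461, 373 and 13.6 TPM in knockout libraries. Again control LFD 5 was the highest of all 20, and on HFD knockout HFD 21 fell between control HFD 12 and the other controls.

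Tnnc2, the fast calcium-binding subunit, stood at 8.10, 1.30, 39.7, 19.8 and 590 TPM in control and 114, 62.4, 8.44, 196 and 1.57 TPM in knockout libraries on LFD. On HFD it was 0.891, 9.60, 0.619, 1.43 and 0.700 TPM in control and 251, 62.4, 198, 154 and 5.41 TPM in knockout libraries. Tnni2, the fast inhibitory subunit, ranged from 0.953 to 406 TPM in control and from 0.0714 to 77.4 TPM in knockout libraries on LFD, and from 0.523 to 7.15 TPM against 4.68 to 168 TPM on HFD. The order of the libraries was nearly that of Tnnt3 in both genes, with control HFD 12 the one control on HFD that reached the lowest knockout library.

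**Figure D1:**
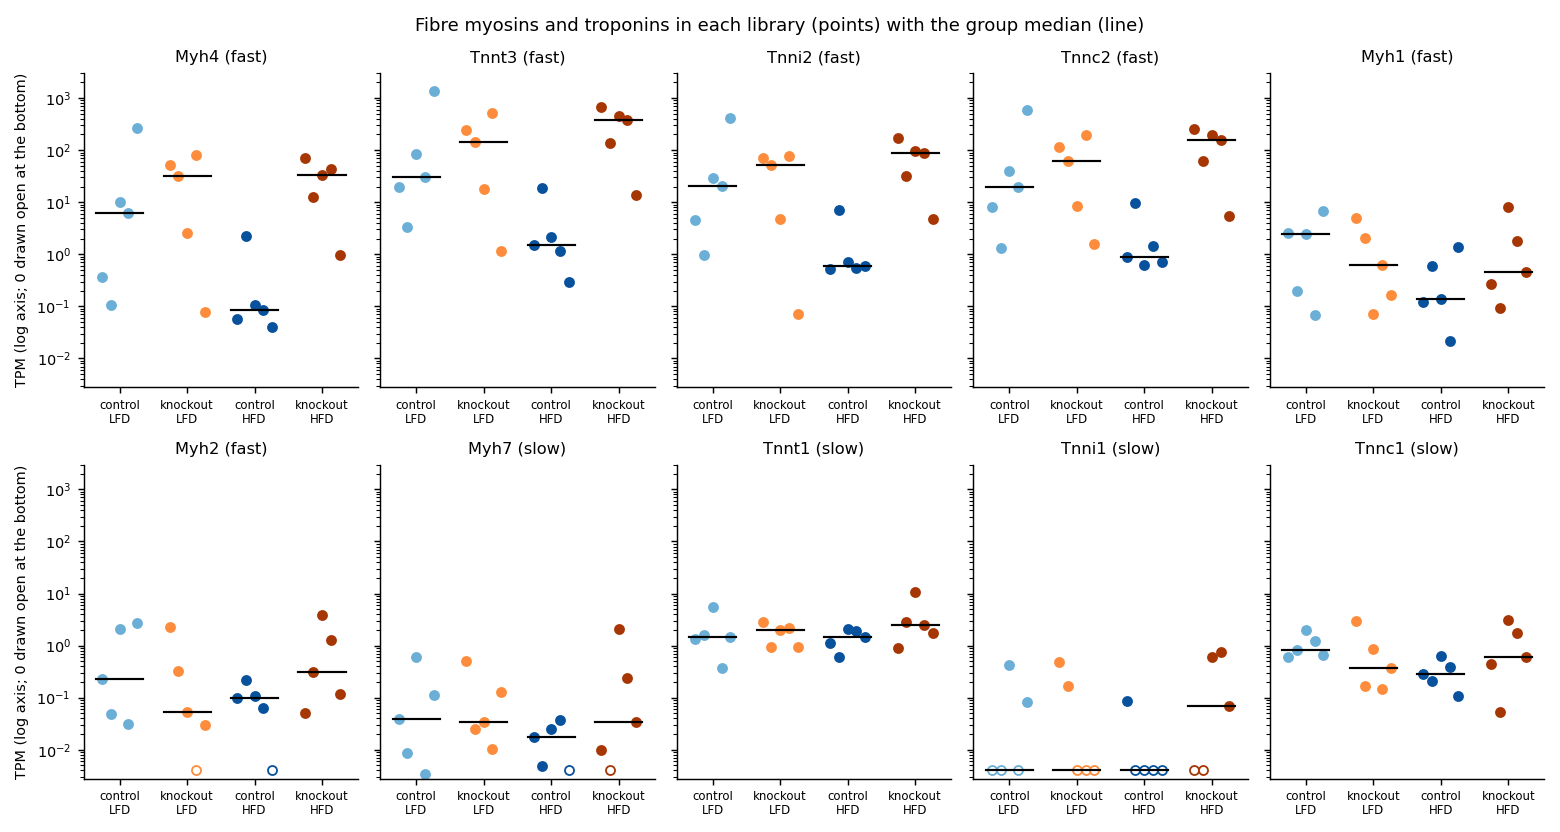
TPM of each of the 10 members in each library on a log axis, with the 4 groups of 5 libraries side by side, filled points for libraries, open points for a value of 0 and a line for the group median. Myh4, Tnnt3, Tnni2 and Tnnc2 spread widely within LFD groups and part on HFD except for control HFD 12 and knockout HFD 21, while the slow members stay low.

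Myh1 and Myh2, the type IIx and IIa chains, had lower medians than Myh4 over the 20 libraries and did not follow it library by library. Myh1 was still the highest of the 4 heavy chains in 6 libraries. In control libraries on HFD its median was 0.139 TPM, against 0.0849 TPM for Myh4. Myh1 on LFD was at 2.53, 0.200, 2.43, 0.0685 and 6.79 TPM in control and 5.06, 2.02, 0.0700, 0.635 and 0.167 TPM in knockout libraries. On HFD it was at 0.121, 0.604, 0.139, 0.0217 and 1.37 TPM in control and 0.275, 0.0928, 8.08, 1.79 and 0.462 TPM in knockout libraries. Knockout HFD 17, with the most Myh4 on HFD, thus had less Myh1 than control HFD 12 and 15. Myh2 ranged from 0 to 3.92 TPM, and its highest values were 3.92 TPM in knockout HFD 19, 2.73 TPM in control LFD 5, 2.24 TPM in knockout LFD 6 and 2.06 TPM in control LFD 3.

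Of the slow members, Myh7, the type I and cardiac chain, was under 0.15 TPM in 16 libraries and reached 2.13 TPM in knockout HFD 19, 0.598 TPM in control LFD 3, 0.510 TPM in knockout LFD 6 and 0.238 TPM in knockout HFD 20. Tnni1, the slow inhibitory subunit, was above 0.4 TPM in those same 4 libraries alone, at 0.60, 0.429, 0.484 and 0.744 TPM. Where Tnni1 or Myh7 is listed at 0, up to 3 counts remain possible, for counting error only. Tnnc1, the slow calcium-binding subunit, ranged from 0.0519 to 3.04 TPM, and its 4 highest values were 3.04, 2.91, 2.01 and 1.78 TPM in the same libraries. These were knockout HFD 19, knockout LFD 6, control LFD 3 and knockout HFD 20. In knockout HFD 20 all of the Tnnc1 level came from a transcript annotated as a retained intron, and coding Tnnc1 was at 0 TPM.

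Tnnt1, the slow tropomyosin-binding subunit, ranged from 0.366 to 10.6 TPM and, unlike Myh7 and Tnni1, was above 0 in every library. Much of it came from transcripts annotated as not coding. Coding transcripts made up most of its TPM in 4 libraries, with 98.8% in knockout HFD 19, 68.5% in control LFD 1, 62.7% in control LFD 3 and 51.4% in knockout LFD 9, and none in control HFD 14 and knockout HFD 17 and 18. Coding Tnnt1 stood at 10.4 TPM in knockout HFD 19 and 3.40 TPM in control LFD 3. The other transcripts lay between 0.13 and 2.81 TPM, so the slow sums of the remaining libraries rest in part on them.

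Fast members exceeded slow ones in all 20 libraries when each side was summed. Pair by pair, Tnni2 was above Tnni1 in 20 libraries, Tnnc2 above Tnnc1 in 19 and Tnnt3 above Tnnt1 in 18. The fast sum ranged from 3.0 to 2663 TPM, an 888-fold range, and the slow sum from 0.813 to 16.3 TPM, a 20.1-fold range. The spread between libraries was thus mainly a spread of the fast side, and the ratio of the sums followed it.

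The ratio of summed fast to summed slow TPM was 17.7, 2.46, 19.98, 48.4 and 1135 in control and 73.3, 225, 11.8, 383 and 2.14 in knockout libraries on LFD. On HFD it was 2.08, 47.1, 1.41, 1.40 and 1.90 in control and 848, 86.0, 49.0, 127 and 10.4 in knockout libraries. Control HFD libraries other than 12 lay between 1.40 and 2.08, where 3.0 to 3.88 TPM of fast members stood against 1.52 to 2.76 TPM of slow ones. The group medians were 19.98 in control and 73.3 in knockout libraries on LFD, and 1.90 and 86.0 on HFD. With coding transcripts alone, a setting added after seeing the data, the medians on HFD were 51.0 and 591, the latter with knockout HFD 18, which had no slow coding TPM, taken as the highest, and 327 over the other 4 knockout libraries. The controls moved because little of the low slow sum of the controls is coding Tnnt1.

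**Figure D2:**
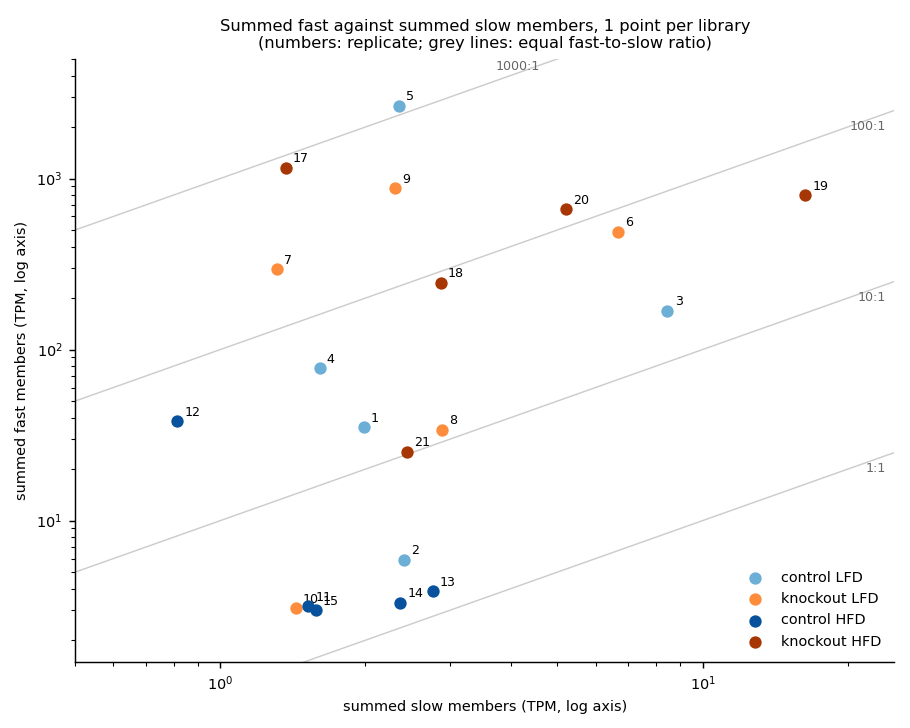
Summed TPM of the 6 fast members against summed TPM of the 4 slow members in each of 20 libraries, both axes on a log scale, with a colour for each group, the library number at each point and grey lines of equal ratio. Fast sums run from 3.0 to 2663 TPM and slow sums from 0.813 to 16.3 TPM, and knockout HFD 19 has the highest slow sum at 49.0 times as much fast as slow.

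The make-up of the fast myosins tells type IIb from IIx and IIa. In TPM, Myh4 was the highest of the 4 heavy chains in 14 libraries and Myh1 in the other 6. In estimated counts Myh7 led in knockout LFD 10, with 46 against 43 for Myh4. The estimated counts of Myh4 made up 17.8%, 38.0%, 72.3%, 98.3% and 96.8% of the counts of Myh4, Myh1 and Myh2 together in control and 89.0%, 92.8%, 95.5%, 99.8% and 46.2% in knockout libraries on LFD. On HFD the shares were 20.2%, 73.7%, 32.5%, 49.5% and 10.5% in control and 99.5%, 97.0%, 73.4%, 93.3% and 61.9% in knockout libraries. Myh4 made up at least 90% in 8 libraries and under 50% in 7, and 2 of the 5 knockout libraries on HFD were at or below the highest control.

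Depth decides how firm these shares are. They rest on between 93 fast myosin counts in knockout LFD 10, where the 95% Wilson interval of the share runs from 36.5% to 56.3%, and 160141 in control LFD 5. Control LFD 1, with 1101 counts, has a share of 17.8% with an interval from 15.7% to 20.2%. The intervals cover counting error alone and not the split of shared reads between paralogs.

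In TPM, the ratio of Myh4 to Myh1 and Myh2 together was 0.134, 0.428, 2.20, 62.9 and 27.7 in control and 7.11, 13.6, 21.2, 127 and 0.404 in knockout libraries on LFD. On HFD it was 0.261, 2.74, 0.433, 0.999 and 0.0297 in control and 219, 30.2, 2.75, 14.1 and 1.71 in knockout libraries. Ratios above 10 and below 1 occurred within both LFD groups. Of the 8 libraries with the highest fast sums, 6 had at least 90% Myh4.

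**Figure D3:**
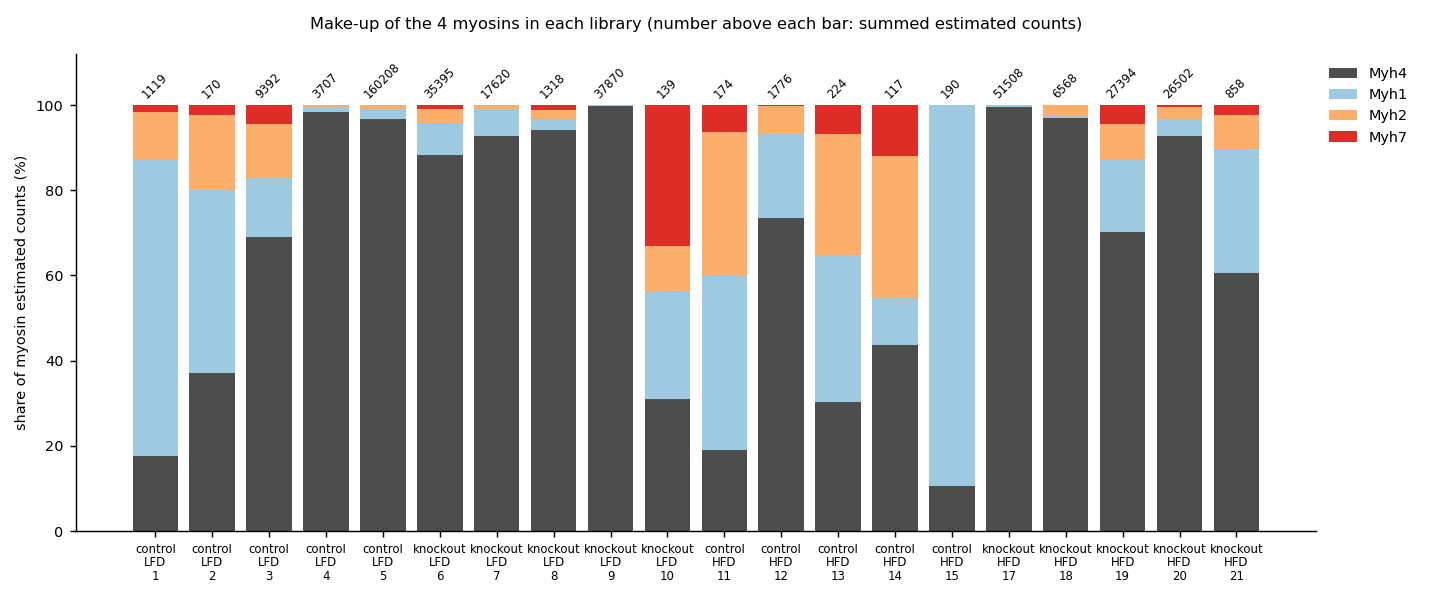
Share of Myh4, Myh1, Myh2 and Myh7 in the estimated counts of the 4 heavy chains, in percent, as a stacked bar for each of 20 libraries, with the summed counts above each bar. Myh4 is the largest part in every knockout HFD library, Myh1 is the largest in control HFD 15, and Myh7 is widest in knockout LFD 10, whose bar rests on 139 counts.

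The libraries with a high fast sum were therefore not alike in their fibre genes. Control LFD 5, knockout LFD 9 and knockout HFD 17 and 18 held 263, 80.4, 71.2 and 12.4 TPM of Myh4 with 96.8% to 99.8% of the fast myosin counts, and Myh7 at 0.111, 0.0103, 0.00972 and 0 TPM. Knockout HFD 19 held 33.0 TPM of Myh4 beside 8.08 TPM of Myh1, 3.92 TPM of Myh2 and 2.13 TPM of Myh7, with 10.6 TPM of Tnnt1. Knockout HFD 19 and 20, knockout LFD 6 and control LFD 3 also had the slow ventricular light chain Myl2 at 9.92, 3.12, 2.83 and 2.15 TPM and Myoz2, a Z-disc protein of slow fibres, at 8.63, 1.61, 1.88 and 1.52 TPM. Of these, knockout HFD 20 had 93.3% of its fast myosin counts from Myh4. Myl2 was listed at 0 in 12 libraries. Fast members still outweighed slow ones 49.0 times in knockout HFD 19 and 19.98 times in control LFD 3.

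Over the 20 libraries, Myh4, Tnni2 and Tnnc2 followed Tnnt3 closely in rank and on the log scale, while their ratios to it varied. On log2(TPM + 1), Pearson's r with Tnnt3 was 0.97 for Myh4, 0.99 for Tnni2 and 0.99 for Tnnc2, and Spearman's rho was 0.98, 0.98 and 0.96 (permutation test, 100000 resamples, p = 1e-05 each, the smallest they can give, and 3e-05 adjusted over the 9 relations). Without knockout HFD 17 and control LFD 5, the 2 libraries farthest from the median of Tnnt3, r was 0.96, 0.99 and 0.99. Centred on group means it was 0.97, 0.98 and 0.99. The ratio of Tnnt3 to Tnnc2 lay between 2.24 and 2.65 in the knockout HFD libraries, and its log2 had an SD of 0.744 over all libraries, against 3.23 for log2 Tnnc2 itself. The ratio of Myh4 to Tnnt3 ran from 0.0192 in control LFD 1 to 0.219 in knockout LFD 7, and that of Tnni2 to Tnnt3 from 0.0621 in knockout LFD 10 to 1.996 in control HFD 15, with SDs of 0.957 and 0.936 in log2.

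The other members went with Tnnt3 less closely. For Myh1 r was 0.58 and rho 0.55 (permutation test, adjusted p = 0.0136 for r and 0.0331 for rho). For Myh2 r was 0.61 and rho 0.51 (permutation test, adjusted p = 0.0081 for r and 0.0400 for rho). For Tnni1 r was 0.48 and rho 0.42 (permutation test, adjusted p = 0.0465 for r and 0.0974 for rho). Centred on group means its r was 0.34 and p no longer under 0.05. Myh7, Tnnt1 and Tnnc1 had r of 0.38, 0.32 and 0.36 (permutation test, adjusted p = 0.114, 0.169 and 0.138). Their rho was 0.25, 0.26 and 0.29 (permutation test, adjusted p = 0.288, 0.288 and 0.280). Without the 2 farthest libraries r was 0.49 for Myh7 and 0.48 for Tnnt1. Among the slow members themselves r lay between 0.61 and 0.84 over 6 pairs with a median of 0.77, against 0.25 to 0.81 with a median of 0.43 over the 24 pairs of a fast and a slow member. The highest of those 24 was Myh2 with Myh7, at 0.81. Myh1 and Myh2 had r = 0.88 with each other, against 0.58 and 0.60 with their neighbour Myh4.

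**Figure D4:**
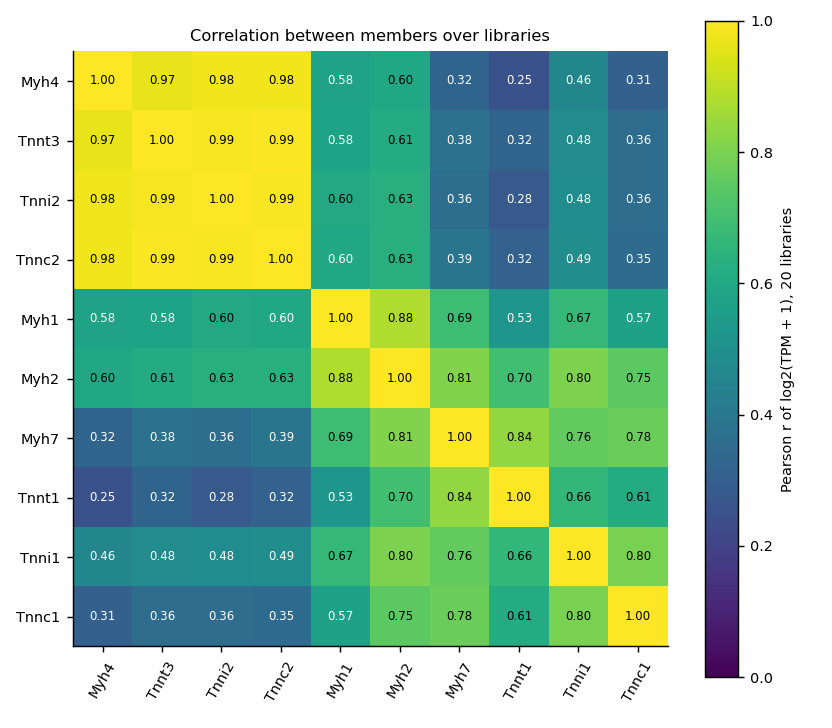
Pearson's r of log2(TPM + 1) between each pair of the 10 members over 20 libraries, as a coloured grid with the value in each cell. Myh4, Tnnt3, Tnni2 and Tnnc2 form a block near 1, and Myh7, Tnnt1, Tnni1 and Tnnc1 a looser block of 0.61 to 0.84.

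The genes outside the 10 whose levels were most like each member's fell into the same pattern, out of 15574 genes searched. Closest to Myh4 were Actn3, Ckm and Pvalb, each with r = 0.99, and closest to Tnnt3 were Atp2a1, Ckm and Actn3 with 0.98, 0.96 and 0.96. Actn3 is an actinin of fast fibres, Ckm the creatine kinase of muscle, Pvalb the calcium buffer parvalbumin and Atp2a1 the calcium pump of fast fibres. Tnni2 and Tnnc2 had genes of this same set as their closest. Closest to Myh2 were Mb, the oxygen store myoglobin, with r = 0.94, Myoz2 with 0.92 and Mybpc1, a slow myosin-binding protein, with 0.86. Myh1 had Mybpc1 at 0.82, Myoz2 at 0.81 and 2310075C17Rik at 0.78. For Myh7, Myoz2 stood at 0.95, Myl2 at 0.90 and 2310075C17Rik at 0.85, and for Tnni1, Myl2 at 0.89, Myoz2 at 0.87 and Gm8556 at 0.73. Tnnt1 and Tnnc1 had Myl2 at 0.82 and 0.80 and Myoz2 at 0.78 and 0.80, followed by Lmod2 for the former and Prr15 for the latter.

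The comparison of knockout with control mice on HFD gave large fold changes for the fast troponins and Myh4 that edgeR did not call. A call here is an adjusted p under 0.1 over all genes tested. None of the 8 tested members was called, against 0.00657% of all 15229 genes, and 7 members had an unadjusted p under 0.05, as did 4.66% of all genes. Without knockout HFD 19, 6 members were tested and 4 had such a p. The 7 include Myh1 and Myh2, which averaged 0.452 and 0.0969 TPM in control libraries and passed the filter only through the knockout group. The sign of these 2 folds was thus set by the filter. The log2 fold change of knockout over control was 5.76 for Tnnc2 (SE 1.09, edgeR adjusted p = 0.178) and 5.39 for Tnni2 (SE 1.05, edgeR adjusted p = 0.189). Group means were 134 ± 99.8 TPM in knockout and 2.65 ± 3.90 TPM in control libraries for Tnnc2 (SD, n = 5 each), and 77.7 ± 63.5 against 1.91 ± 2.93 TPM for Tnni2 (SD, n = 5 each). In these bulk samples fewer cells of a type and less RNA per cell cannot be told apart.

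Whether these 4 members were called turned on the tool and on 2 libraries. DESeq2, the tool of the study, called Tnnc2 (adjusted p = 2.17e-05), Tnni2 (adjusted p = 5.8e-05), Tnnt3 and Myh4, among 0.657% of all genes. Without control HFD 12 edgeR called the same 4, each with an adjusted p of 0.0388 and among 0.0655% of all genes, and the fold of Myh4 was then 8.84 on the log2 scale. Without knockout HFD 21 it also called them (edgeR adjusted p = 0.0887 for Myh4, 0.0305 for Tnnt3, 0.0240 for Tnni2 and 0.0158 for Tnnc2), among 0.38% of all genes. With no filter on low values edgeR called Tnnt3, Tnni2 and Tnnc2 (adjusted p = 0.0854, 0.0767 and 0.0684) and not Myh4 (0.178), among 0.11% of all genes. In TPM each of the 4 had an exact permutation p of 0.0159, with 4 of 5 knockout libraries above all controls, a property shared by 2.64% of all genes (at least 4 of 5), and none of the 4 had groups that did not overlap. The smallest p that 5 against 5 allows is 0.00794.

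The type IIx and IIa chains and the slow members had smaller fold changes on HFD, and these rested largely on knockout HFD 19. The log2 fold change was 3.20 for Myh1 (SE 1.14, edgeR adjusted p = 0.966) and 3.67 for Myh2 (SE 1.19, edgeR adjusted p = 0.799). It was 1.82 for Tnnt1 (SE 0.781) and 2.06 for Tnnc1 (SE 0.993), both with an edgeR adjusted p of 0.999. Myh1, Myh2 and Tnnc1 averaged under 0.5 TPM in the control libraries and entered the test only through the knockout group. Without knockout HFD 19 Myh2 and Tnnc1 were no longer tested, and the log2 fold change was 1.46 for Myh1 and 0.35 for Tnnt1. Exact permutation tests in TPM gave p = 0.302 for Myh1, 0.0952 for Myh2, 0.254 for Myh7, 0.175 for Tnnt1, 0.286 for Tnni1 and 0.206 for Tnnc1. Knockout HFD 19 held the highest value of Myh1, Myh2, Myh7, Tnnt1 and Tnnc1 in this group, and knockout HFD 20 that of Tnni1.

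On LFD knockout and control libraries did not differ beyond their spread in any member tested. None of the 8 was called, and none had an unadjusted p under 0.05, while 0.00636% of all 15717 genes were called and 5.11% had such a p. The log2 fold changes lay between -1.19 for Tnni2 (SE 1.48) and -0.33 for Tnnc1, with edgeR adjusted p values from 0.934 to 0.960. Group means of Myh4 were 56.0 ± 116 TPM in control and 33.4 ± 34 TPM in knockout libraries (SD, n = 5 each), the former resting on the 263 TPM of control LFD 5. Without it the fold of Myh4 turned from negative to 2.86 on the log2 scale, and that of Tnnt3 to 2.16.

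In control mice HFD went with lower levels of fast troponins and Myh4. Of the 8 members tested 5 were called lower, against 4.91% of all 15312 genes called lower, 4.42% called higher and 9.33% called in either direction. An unadjusted p under 0.05 was reached by 20.7% of all genes. With limma on log2(TPM + 1), 1791 genes were called higher and 350 lower, and the median of all genes was 0.13 in place of -0.038 on the log2 scale. Myh4 fell by 6.91 on the log2 scale (SE 2.15, edgeR adjusted p = 0.0912) and Tnnt3 fell by 6.15 (SE 1.71, edgeR adjusted p = 0.0625). Tnnc2 fell by 5.77 (SE 1.59, edgeR adjusted p = 0.0602), and Tnni2 fell by 5.72 (SE 1.56, edgeR adjusted p = 0.0588). The slow calcium-binding subunit Tnnc1 fell by 2.14 (SE 0.663, edgeR adjusted p = 0.0900). Its levels were 0.597, 0.822, 2.01, 1.24 and 0.675 TPM on LFD and 0.281, 0.210, 0.637, 0.396 and 0.107 TPM on HFD, and the groups overlapped by 1 library. Tnnc1 rests on few counts, from 2 to 151 per library. In control libraries coding Tnnc1 had a median of 0.182 TPM on LFD and 0 TPM on HFD. Tnnc1, Myh1 and Myh2 averaged 0.326, 0.452 and 0.0969 TPM in control libraries on HFD, under the limit of 0.5 TPM. They entered this comparison only through the LFD group, so the sign of their folds was set by the filter.

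These calls depended on single libraries. Without control LFD 5 none was called, against 5.7% of all genes, and the log2 fold changes were -3.28 for Myh4, -3.27 for Tnnt3, -3.21 for Tnni2, -3.05 for Tnnc2 and -2.30 for Tnnc1. Without control HFD 11, 14 or 15 none was called either, without control HFD 13 Tnnc1 alone (edgeR adjusted p = 0.0902), and without control LFD 3 there were 3. Myh1, Myh2 and Tnnt1 were not called, with log2 fold changes of -3.24 (SE 1.14), -3.44 (SE 1.23) and -1.17 (SE 0.71) and edgeR adjusted p values of 0.127, 0.133 and 0.389. DESeq2 called Tnni2, Tnnc1, Myh1 and Myh2 (adjusted p = 0.000655, 0.0244, 0.0436 and 0.0726) and gave no adjusted p for Myh4, Tnnt3 and Tnnc2, while it called 14.4% of all genes. Exact permutation tests in TPM gave p = 0.0159 for Tnnt3 and Tnnc1, 0.0397 for Tnnc2, 0.0556 for Tnni2 and 0.0635 for Myh4.

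In knockout mice the diets did not differ in these genes beyond the spread. None of the 8 was called and none had an unadjusted p under 0.05, while 9.39% of all 15705 genes were called and 19.8% had such a p. The log2 fold changes of HFD over LFD lay between -0.09 for Myh4 and 1.21 for Tnnt1. Without knockout HFD 21 that of Myh4 was 0.22, and 963 genes were called in place of 1475. With limma 1009 genes were called higher and 525 lower, against 714 and 761. The difference between the genotype effects on the 2 diets was largest for Myh4 at 6.80 and Tnnt3 at 6.79 on the log2 scale, then Tnni2 at 6.55 and Tnnc2 at 6.52. With unadjusted p values of 0.0123, 0.00478, 0.00398 and 0.00363, none was called (edgeR adjusted p = 0.9999 each), nor was any of the 15574 genes (0%), of which 560 (3.6%) had an unadjusted p under 0.05. DESeq2 called 14 genes for this difference, none of them a member. The comparisons share groups of libraries, above all the low control HFD group, so they do not count as separate evidence.

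**Figure D5:**
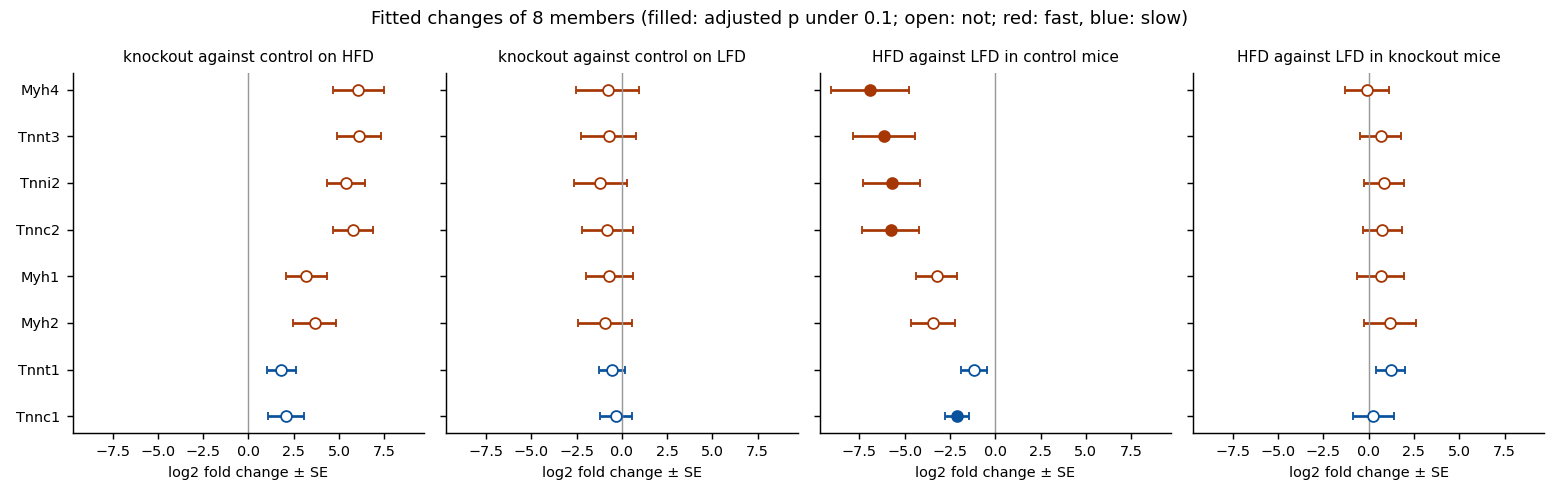
Log2 fold change of each tested member in the 4 comparisons, with points for the edgeR estimate, filled where the adjusted p was under 0.1, and bars for 1 standard error. Fast troponins and Myh4 lie between 5.39 and 6.09 for knockout against control on HFD and between -6.91 and -5.72 for HFD against LFD in control mice, and closer to 0 in the other comparisons.

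Ratios of fast to slow partners within a library were compared for 7 pairs in 4 comparisons, which makes 28 exact permutation tests, and none passed an adjusted p of 0.05. The smallest exact p that 5 against 5 allows is 0.00794, so no single ratio could pass this limit alone. On HFD the mean log2 ratio was higher in knockout than in control libraries by 5.6 for Tnnt3 to Tnnt1, 4.6 for Tnnc2 to Tnnc1 and 4.24 for Tnni2 to Tnni1 (exact permutation p = 0.0159, adjusted p = 0.0889 each). For Myh4 to Myh1 it was higher by 4.56 and for Myh4 to Myh2 by 4.18 (exact permutation p = 0.0159, adjusted p = 0.0889 each), and for Myh4 to Myh7 by 4.73 (exact permutation p = 0.0238, adjusted p = 0.111). Each ratio had 0.1 TPM added to both sides. Tnni1 was listed at 0 in 4 control and 2 knockout libraries on HFD, and Myh7 was at 0.037 TPM or less in every control library on HFD. In those libraries the ratios to Tnni1 and Myh7 mostly followed the level of the fast partner. Myh1 to Myh2 differed by -0.38 (exact permutation p = 0.746), and this sign turned when single libraries were left out. In control mice the ratios on HFD lay below those on LFD by -4.42 for Tnnt3 to Tnnt1, -3.24 for Myh4 to Myh7 and -2.24 for Myh4 to Myh1, with exact permutation p values of 0.0556, 0.0952 and 0.222.

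Lists of other muscle genes were read in the same fits and described by counts, which include genes that passed the filter only through the group where they are high. Of 9 partners of the fast members, among them the light chains Myl1 and Mylpf, Pvalb and Atp2a1, 8 were tested on HFD and 8 had a fold above 0 in knockout mice, none called, with a median log2 fold change of 5.07 against 0.0060 over all genes. In control mice 6 of 9 were called lower on HFD, with a median of -5.43 against -0.038 over all genes. Mylpf averaged 2.01 ± 2.46 TPM in control and 56.2 ± 44.7 TPM in knockout libraries on HFD (SD, n = 5 each), and Pvalb 1.43 ± 1.03 against 45.4 ± 40.6 TPM (SD, n = 5 each). Myl1 was the exception in level, at 37.1 TPM or more in every library. Of 18 genes used by all fibre types, such as Tpm2, Acta1, Ckm and Neb, 15 were tested on HFD, 15 had a fold above 0 in knockout mice and none was called, with a median of 3.40. In control mice 9 of 15 were called lower on HFD, with a median of -4.52. For knockout against control on LFD the folds of both lists had the other sign, with none called. There 0 of 9 partners of the fast members (median -0.85) and 0 of 17 genes of all fibre types (median -0.96) had a fold above 0.

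Partners of the slow members fell into broadly expressed genes with folds near 0 and fibre genes that were present in few libraries. Of 9, 7 were tested for knockout against control on HFD and none was called, with a median of 0.34, and 1 of 4 tested was called higher on HFD in control mice. That gene was Tpm3, a tropomyosin that many cell types make, at 258.8 ± 39.5 TPM on HFD and 164 ± 20.8 TPM on LFD (SD, n = 5 each). Tpm3 was also called higher on HFD in knockout mice (log2 fold change 0.52, edgeR adjusted p = 0.0361). Tpm3 and the calcium pump Atp2a2, at 25.6 to 48.8 TPM, made up most of the list's level, and Casq2, a calcium store of slow and heart muscle, lay between 0.386 and 4.11 TPM. Their log2 fold changes for knockout against control on HFD were -0.02 for Tpm3, 0.02 for Atp2a2 and 0.34 for Casq2. Myl2 was listed at 0 in all 5 control libraries on HFD and at 0, 0, 9.92, 3.12 and 0.209 TPM in the knockout libraries. Myoz2 had a log2 fold change of 5.94 (SE 2.23, edgeR adjusted p = 0.987) and Csrp3, a Z-disc protein, of 4.11 (SE 1.95, edgeR adjusted p = 0.999), with their highest levels of 8.63 and 3.90 TPM in knockout HFD 19. These genes entered the test only through the knockout group, so the sign of their folds was set by the filter.

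Markers of the heart, of developing muscle and of smooth muscle were read beside the members. Of 7 heart genes, Myh6 was at 0 in 17 libraries, Myl7 in 19 and Nppa in 20, and the summed level ran from 3.66 to 19.7 TPM, with Myl4, a light chain of the atrium, at the highest mean. Only 2 of the 7, Myl4 and Tnni3, were tested for diet, and they had opposite signs. Myl4 was called higher on HFD in control mice (log2 fold change 1.31, edgeR adjusted p = 0.00597) and in knockout mice (1.34, edgeR adjusted p = 0.0560), the opposite sign to the fast members in control mice. Tnni3 had log2 fold changes of -0.92 in control and -0.82 in knockout mice and was not called (edgeR adjusted p = 0.304 and 0.516). Of 10 genes of developing or denervated muscle none was high enough to be tested, and their sum lay between 0.0193 and 1.67 TPM. Of 6 smooth muscle genes, including Acta2, Tagln and Myh11, none was called in either HFD comparison, with medians of -0.04 for knockout against control and -0.13 for HFD against LFD in control mice. Their summed level lay between 109 and 276 TPM over all groups.

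Brown fat markers had folds of the same sign as the fast members in both HFD comparisons. For knockout against control on LFD 0 of 6 had a fold above 0, with a median of -0.65 and none called. In control mice 3 of 6 were called lower on HFD, Cidea by -2.58, Elovl3 by -3.72 and Ppara by -1.28 on the log2 scale, and in knockout against control mice on HFD 6 of 6 had a fold above 0 with a median of 1.01 and none called. Their summed TPM ran from 39.8 to 238 in control and 23.9 to 185 in knockout libraries on LFD, and from 16.1 to 69.4 in control and 26.0 to 317 in knockout libraries on HFD. Elovl3 was at 0 in 1 library and the other 5 in none, and Ucp1, the uncoupling protein of brown fat, lay between 0.570 and 194 TPM. White fat markers had a median log2 fold change of -0.18 for knockout against control on HFD with none of 8 called. Between the diets Lep alone was called, higher on HFD by 2.10 in control and by 2.41 in knockout mice on the log2 scale. The part of these markers in the results on the members was not tested.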

How the data were processed

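RNA from iWAT was sequenced in 20 libraries, in 4 groups of 5, as ribosome-depleted stranded total RNA. The authors quantified transcripts with Salmon 0.13.1 on Ensembl 67 transcripts of mm9, and STAR 2.5.3 is listed in the submitters' processing notes. The deposited TPM values are scaled within each library, and the deposited estimated counts are not normalized. Genes are sums over transcripts by GENCODE vM1 (Ensembl 65), where 97.7% of transcripts were found, and 0.377% to 0.581% of a library's counts were unmatched. Gene sums of the counts were rounded, scaled by TMM and tested with edgeR's quasi-likelihood test (edgeR 4.0.16, R 4.3.3) wherever the mean reached 0.5 TPM, with Benjamini-Hochberg adjustment and a limit of 0.1. The SE is the log2 fold change divided by the root of F. DESeq2 1.42.0 and limma 3.58.1 on log2(TPM + 1) were alternatives, besides RLE scaling, no filter, length offsets, the newer quasi-likelihood method and single libraries left out. Single genes, on log2(TPM + 1), and ratios, with 0.1 TPM added, went into exact permutation tests, two-sided, with all 252 assignments (scipy 1.17.1). The scripts were tested on simulated data.

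The genes named are the members, Tmem120a, the 3 genes most correlated with each member, and up to 4 genes with the highest mean of each list. Myoz2, Csrp3, Elovl3, Lep and the heart genes at 0 were named after their values were seen. The members and lists were chosen with earlier results of these data known. Tnnc1 sums 2 gene identifiers, and its transcript ENSMUST00000022468 was not analysed here. The labels do not tie libraries to animals, so p-values measure the spread between libraries. The labels give no batch.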

Additional observations from a re-analysis of the deposited data

Results flagged for a closer look

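Each group of 5 libraries was searched for a value whose gap to its nearest neighbour exceeded 0.71 of the group's range (Dixon's 95% limit), in 48 sets, and 22 passed. Chance passes about 1 in 20 sets of normally distributed values. The rate for TPM values as skewed as these was not measured, and sets for genes that move together are not independent.

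Control LFD 5 stood far above the other controls on LFD, with Myh4 at 263 TPM (next 9.89), Tnnt3 at 1395 (next 85.4), Tnni2 at 406 (next 29.5), Tnnc2 at 590 (next 39.7) and a fast to slow ratio of 1135 (next 48.4). Control HFD 12 did so among controls on HFD at a far lower level, with Myh4 at 2.25 TPM (next 0.107), Tnnt3 at 18.5 (next 2.18), Tnni2 at 7.15 (next 0.721), Tnnc2 at 9.60 (next 1.43) and a ratio of 47.1 (next 2.08).

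Type IIx and IIa myosins and slow members stood out in other libraries. Knockout HFD 19 was high for Myh1 at 8.08 TPM (next 1.79), Myh7 at 2.13 (next 0.238) and Tnnt1 at 10.6 (next 2.81). Knockout LFD 6 was high for Myh2 at 2.24 TPM (next 0.323), Myh7 at 0.510 (next 0.127) and Tnnc1 at 2.91 (next 0.875). Control LFD 3 was high for Myh7 at 0.598 TPM (next 0.111), Tnnt1 at 5.42 (next 1.57) and Tnni1 at 0.429 (next 0.0840). Control HFD 11 had Tnni1 at 0.0867 TPM, with the other 4 controls on HFD listed at 0.

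For the ratios, knockout HFD 17 had 848 times as much fast as slow (next 127), and knockout LFD 10 had the lowest Myh4 share of its group at 46.2% (next 89.0%).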

How the results depend on the processing

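No paired analysis was possible because the groups share no replicate numbers. Of 550 fitted folds of members under alternatives, 21 turned sign, all in comparisons without a call, and no pair ratio passed its limit under any setting.

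Members called for knockout against control on HFD, 0 as reported, numbered 4 with DESeq2, 4 with edgeR's newer method (added after seeing the data), 3 with no filter, and 0 to 4 with single libraries left out. For HFD against LFD in control mice they numbered 2 with limma, 7 with the newer method and 0 to 6 with single libraries left out, against 5.

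Over all genes, calls for knockout against control on HFD were 100 with DESeq2, 34 with the newer method, 26 with no filter, 5 with length offsets, 3 with limma and 1 to 58 with single libraries left out. On LFD they were 17 with DESeq2, 2 with limma and 1 to 2 with libraries left out. For the diets they were 2206 with DESeq2 and 780 to 1846 with libraries left out in control mice, and 2247 and 753 to 1355 in knockout mice. DESeq2 gave 14 for the difference of genotype effects.

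Signs turned with limma for Myh4 on diet in knockout mice (0.48) and for knockout against control on LFD in Myh4 (0.82), Tnnc2 (0.35), Tnnt1 (0.0050) and Tnnt3 (0.24). With single libraries left out, the LFD fold of knockout over control ran from -1.45 to 2.86 for Myh4, -1.57 to 2.16 for Tnnt3, -1.54 to 1.94 for Tnnc2, -1.55 to 1.34 for Tnni2, -1.94 to 0.40 for Myh1, -0.84 to 0.57 for Tnnt1 and -1.54 to 0.13 for Tnnc1. The diet fold in knockout mice ran from -1.10 to 1.88 for Myh1, -0.63 to 0.60 for Myh4, -0.74 to 1.44 for Tnnc1 and -0.27 to 1.48 for Tnnt1, and Tnnt1 in TPM in control mice from -0.40 to 0.16. The Myh1 to Myh2 ratio turned to 0.26 for diet in control mice with estimated counts (-0.90 to 0.27 with libraries left out) and ran from -0.74 to 0.34 for knockout against control on HFD. Median fast to slow ratios with coding transcripts were 51.0 in control and 591 in knockout libraries on HFD with a slow sum of 0 taken as the highest ratio, and 327 without that knockout library. Myosins alone, by the same rule, moved no group median by over 1 SD. Where no construction shows it, the cause was not tested. Low counts limit Tnni1, Tnnc1 and Myh7.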
